A study of Mus musculus with 2 samples.

Results

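The genes described here encode transcription factors of epidermal differentiation: Trp63, Klf4, Klf5, Ovol1, Cebpa, Cebpb, Prdm1, Tfap2a and Grhl3. They were chosen by name, and every probe set that the platform annotation assigns to them was taken. Of these 9 genes, 8 were represented on the array, by 16 of its 22690 probe sets. Grhl3 had no annotated probe set and was not analysed here. The mice were 10 days old and were either transgenic, with keratinocytes that expressed a constitutively active aryl hydrocarbon receptor (AhR), or non-transgenic wild-type littermates. Each genotype was read on 1 array, from biotin-labelled total RNA of whole back skin, which makes 2 arrays. The transgenic array is titled K14Ahr; the labels do not spell out the promoter, and they do not give the sex of the animals or how many contributed to an array. With 1 array per genotype there is no replicate error and no test, so the values compare these 2 arrays only.

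Epidermis is renewed by basal keratinocytes that leave the cell cycle, move outward through the spinous and granular layers and end as cornified cells. p63, the product of Trp63, and AP-2 alpha, from Tfap2a, maintain the keratinocyte identity of the basal layer, and Klf5 is a zinc finger factor linked to proliferation of basal cells. The C/EBP leucine zipper factors of Cebpa and Cebpb and the zinc finger repressor Ovol1 act as cells stop dividing and become spinous. Klf4, the repressor Blimp1 (from Prdm1) and Grhl3 act in the granular layer, where the skin barrier is built. AhR binds DNA with its partner ARNT at elements that contain the core GCGTG.

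The upstream sequences of 4 of these genes are shown because they hold, or lack, the core that AhR recognises. Cebpa and Klf4 were among the 3 factor genes with the highest signal on the transgenic array relative to the wild-type array, Cebpb was nearly equal on both arrays and Prdm1 had the lowest ratio. These 4 were chosen after the values were seen. The sequences are from RefSeq (GRCm38.p6) and cover the 250 bases before a transcription start, read 5′ to 3′ on the gene's strand. They lie at chr7:35119043-35119292 (plus strand) for Cebpa, chr4:55532476-55532725 (minus strand) for Klf4, chr2:167688665-167688914 (plus strand) for Cebpb and chr10:44458749-44458998 (minus strand) for Prdm1. Capitals mark GCGTG or its reverse complement CACGC.
Cebpa: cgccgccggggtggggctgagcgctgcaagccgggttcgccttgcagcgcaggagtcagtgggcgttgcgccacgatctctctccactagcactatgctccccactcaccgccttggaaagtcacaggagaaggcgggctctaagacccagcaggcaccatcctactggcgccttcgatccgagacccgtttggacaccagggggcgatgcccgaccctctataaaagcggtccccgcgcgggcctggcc
Klf4: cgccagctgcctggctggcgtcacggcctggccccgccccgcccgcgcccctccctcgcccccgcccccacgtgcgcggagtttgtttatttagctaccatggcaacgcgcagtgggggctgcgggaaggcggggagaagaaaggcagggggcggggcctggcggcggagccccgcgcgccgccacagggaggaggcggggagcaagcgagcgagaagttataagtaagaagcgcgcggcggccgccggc
Cebpb: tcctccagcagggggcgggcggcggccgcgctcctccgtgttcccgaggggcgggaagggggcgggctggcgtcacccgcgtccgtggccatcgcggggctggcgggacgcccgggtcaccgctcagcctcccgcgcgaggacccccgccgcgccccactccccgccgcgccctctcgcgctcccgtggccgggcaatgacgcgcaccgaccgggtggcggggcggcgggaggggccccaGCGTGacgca
Prdm1: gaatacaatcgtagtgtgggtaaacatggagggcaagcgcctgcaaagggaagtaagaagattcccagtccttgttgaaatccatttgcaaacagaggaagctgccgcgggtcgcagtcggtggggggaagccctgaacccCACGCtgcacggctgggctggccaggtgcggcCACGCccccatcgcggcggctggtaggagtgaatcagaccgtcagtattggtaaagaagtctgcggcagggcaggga

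The Cebpa and Klf4 sequences hold no core on either strand. The Cebpb sequence holds 1 that begins 10 bases before the start, and the Prdm1 sequence holds 2, on the other strand, at 109 and 77 bases before the start. The start used for Prdm1 lies inside the gene's annotated span and not at its outer end. Sequences were listed for 6 of the 9 genes, not for Trp63, Klf5 or Ovol1, and those of Grhl3 and of both Tfap2a starts hold no core. Both Tfap2a starts, like that of Prdm1, lie inside the gene's annotated span. Over all 32851 promoters in the table, 28.2% hold at least 1 core in the same 250 bases. A match of 5 letters describes the sequence and is not a binding site, and the absence of a match says nothing of AhR at other positions.

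None of the 8 measured genes differed by 2-fold between the arrays. Klf5, Cebpa and Klf4 read higher in transgenic skin, by 1.63-fold, 1.44-fold and 1.34-fold, and Prdm1 and Trp63 read lower, by 1.27-fold and 1.22-fold. Cebpb, Ovol1 and Tfap2a were nearly equal. A gene was represented by its brightest probe set, and its log2 ratio is the log2 of the transgenic signal divided by the wild-type signal. All 16 probe sets lay above the floor of 34.7 on both arrays, the signal below which values were not interpreted. The median log2 ratio of the 8 genes was 0.02, against -0.05 over all 8894 measured genes. Among all measured genes, 2.27% were higher by 2-fold or more and 1.09% were lower by 2-fold or more. With a limit of 1.5-fold, 1 of the 8, Klf5, was higher and none lower, beside 6.8% and 6.38% of all measured genes, so neither count stands apart from the background.

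**Figure D1:**
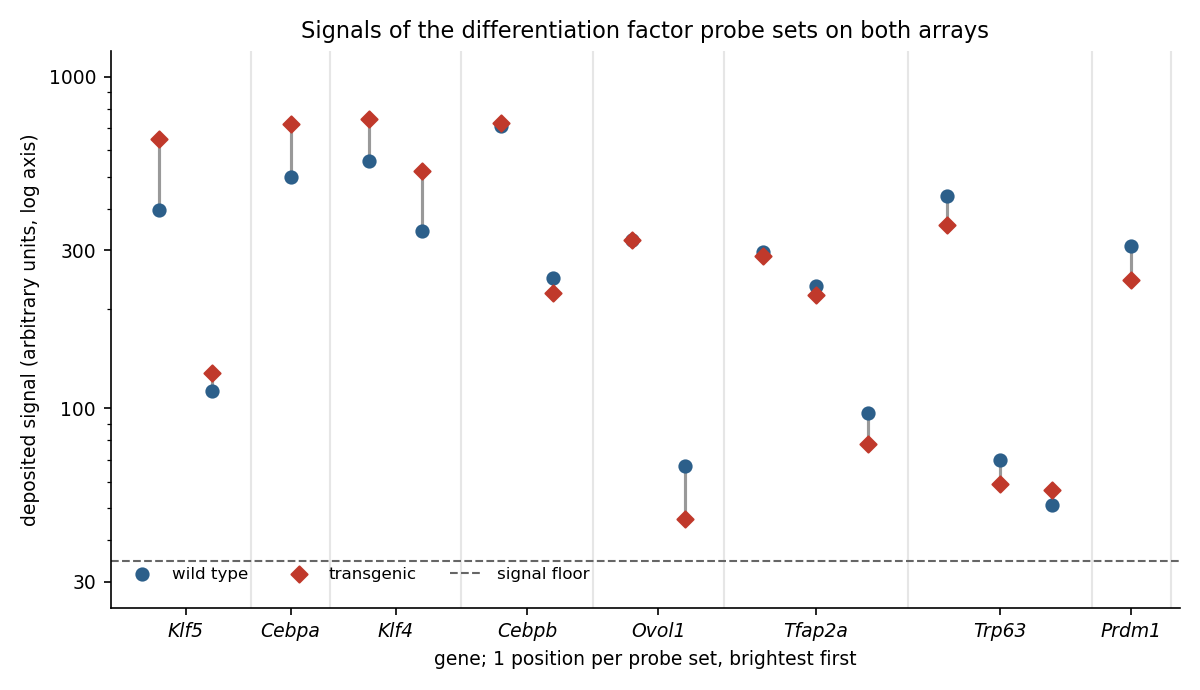
Deposited signal (arbitrary units, log axis) of the 16 probe sets of 8 genes on the wild-type array (circles) and the transgenic array (diamonds), ordered by log2 ratio of the brightest probe set; the dashed line is the signal floor. The transgenic point lies above the wild-type point in every probe set of Klf5, Cebpa and Klf4, and below it in every probe set of Tfap2a and in that of Prdm1.

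Among the factors of the basal layer, Trp63 was somewhat lower and Tfap2a close to equal. The brightest Trp63 probe set read 357.9 on the transgenic and 436.8 on the wild-type array, a log2 ratio of -0.29. Its other probe sets were dim and split, at 59.3 against 69.7 (-0.23) and 56.7 against 51.2 (0.15). The direction of Trp63 therefore rests on its 2 probe sets below 0, of which 1 is bright. Tfap2a has 3 probe sets, all lower in transgenic skin by small amounts. The brightest read 287.8 against 296.5 (-0.04), the next 220.1 against 234.7 (-0.09), and the dimmest 78.0 against 96.5 (-0.31). The name of the brightest carries the suffix _s_at, which marks a probe set that can bind transcripts of more than 1 gene.

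Klf5 had the highest log2 ratio of the 8 genes, but its probe sets gave different sizes. The brighter read 648.7 against 397.7, a log2 ratio of 0.71. The dimmer read 127.7 against 112.5, a log2 ratio of 0.18. Both were higher in transgenic skin, and they differed by 0.52. Of all measured genes, 4.87% had a log2 ratio as high as that of the brighter probe set, and 3.57% of the 1991 genes with signals above 200 on both arrays did.

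The factors that act when cells leave the basal layer did not move as a group. Cebpa read 719.1 on the transgenic and 500.4 on the wild-type array in its only probe set, a log2 ratio of 0.52. Of all measured genes, 7.98% had a ratio as high. Cebpb, its close relative, read 728.6 against 709.5 (0.04) by the brighter probe set and 222.3 against 246.7 (-0.15) by the dimmer, so the arrays could not be ordered for this gene. Ovol1 read 322.6 against 321.2 (0.01) by its brighter probe set. Its dimmer probe set read 46.4 against 67.1 (-0.53), with the transgenic signal near the floor. These probe sets of Ovol1 differed by 0.54, the widest gap between any pair among the 8 genes.

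The granular layer factors Klf4 and Prdm1 lay on opposite sides of 0. Klf4 read 747.6 against 557.6 by its brighter probe set, a log2 ratio of 0.42. Its other probe set gave 520.3 against 342.4, a log2 ratio of 0.60. Among factors with more than 1 probe set, only Klf4 and Klf5 read higher in every one. The smaller log2 ratio was 0.42 for Klf4 and 0.18 for Klf5. Prdm1 read 244.2 against 309.2 in its only probe set, a log2 ratio of -0.34, and 18.0% of all measured genes had a ratio as low. For Cebpa and Prdm1, with 1 probe set each, no second reading was available.

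**Figure D2:**
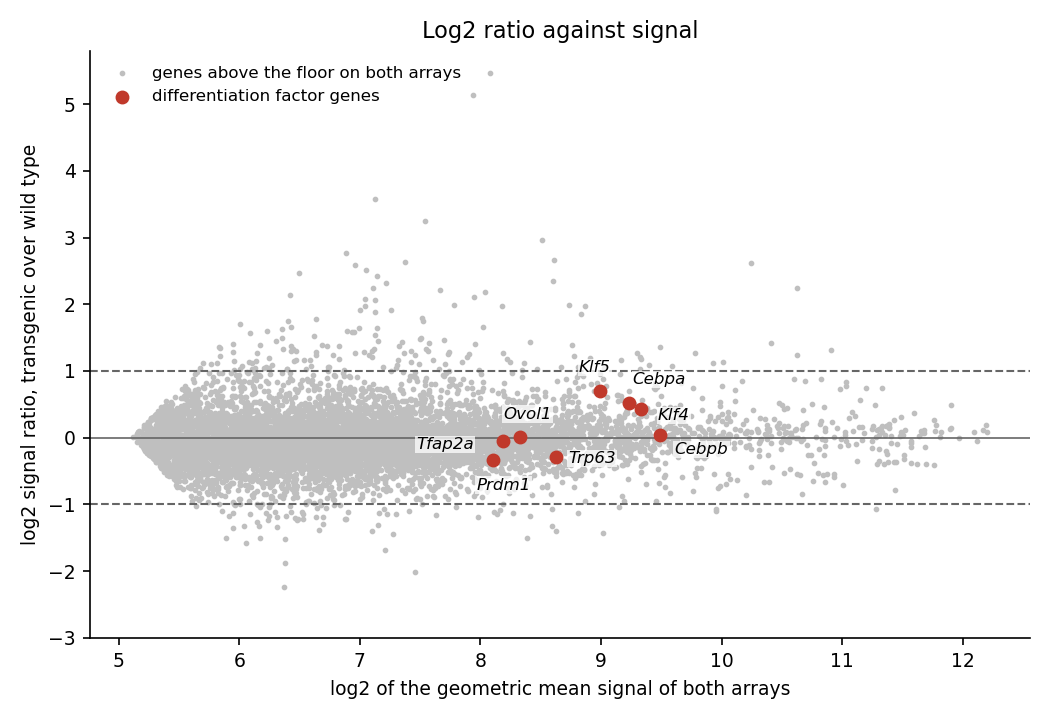
Log2 ratio (transgenic over wild type) against the log2 of the geometric mean signal, for genes above the floor on both arrays (grey) and the 8 differentiation factor genes (red, named); dashed lines mark 2-fold. All 8 lie between -0.34 and 0.71, inside the 2-fold lines and within the cloud of other genes.

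The spread between probe sets of the same gene is a technical measure of error for these ratios, and it also holds real differences between transcript variants. Over 5355 pairs of probe sets from 2535 genes, with every signal above the floor, the ratios of a pair differed by a median of 0.21 and by more than 0.61 in 10% of pairs. The 12 hybridisation controls above the floor, RNAs of known amount added to the sample, had log2 ratios from -0.29 to 0.07. The factor genes gave 10 such pairs, of which 4 differed by less than the median and none by as much as 0.61. In 4 of the 10 the probe sets had opposite signs, against 34.5% of all pairs. These came from Cebpb, Ovol1 and Trp63.

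**Figure D3:**
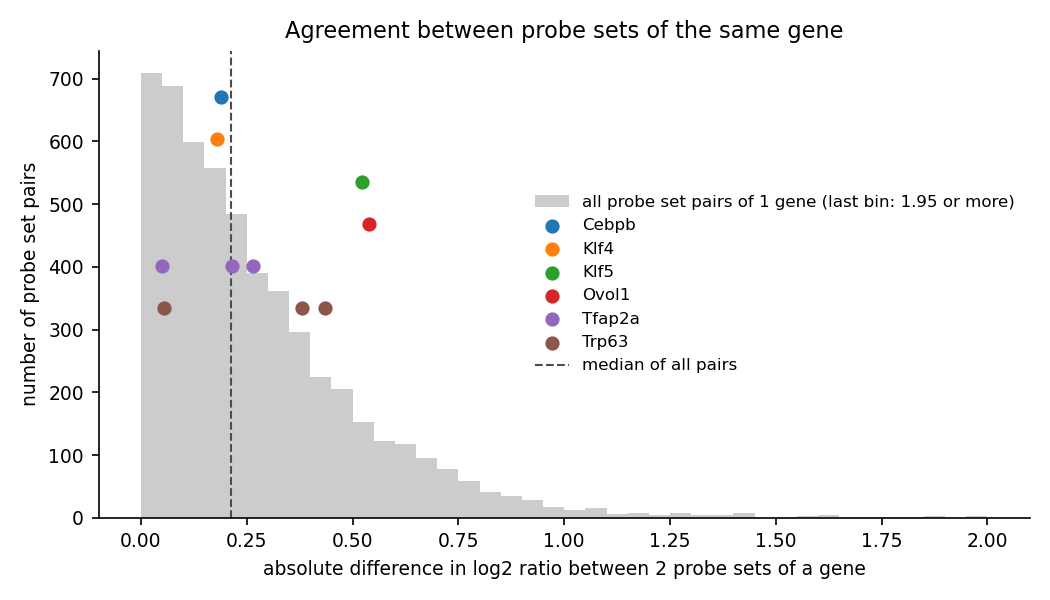
Histogram of the absolute difference in log2 ratio between 2 probe sets of a gene, over 5355 pairs (grey), with the 10 pairs of the factor genes as coloured points at arbitrary heights and the median of all pairs, 0.21, as a dashed line. The Klf5 and Ovol1 pairs lie furthest right, at 0.52 and 0.54.

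In order of log2 ratio the genes ran Klf5, Cebpa, Klf4, Cebpb, Ovol1, Tfap2a, Trp63, Prdm1. Klf5, Cebpa and Klf4 were separated by gaps of 0.18 and 0.10, smaller than the median gap between probe sets of a gene. The gap from Klf4 to Cebpb was 0.38, and 25.3% of all probe set pairs differed by as much. Cebpb, Ovol1 and Tfap2a were separated by 0.03 and 0.05. From Tfap2a to Trp63 the gap was 0.24, and from Trp63 to Prdm1 0.05. The distance between both ends of the order, Klf5 and Prdm1, was 1.05.

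Whole skin was measured, so a higher or lower signal can come from a different number of cells or from a different amount of RNA per cell, which cannot be told apart. All 7 keratinocyte markers examined were above the floor on both arrays and none had a log2 ratio below 0. Their log2 ratios ran from 0.01 (Dsp) to 2.61 (Krt1). The median, 0.56, was that of Krt5. Their summed signal was 17938 on the transgenic and 11288 on the wild-type array. Setting each factor's log2 ratio against this median put Klf5 at 0.15, Cebpa at -0.04, Klf4 at -0.14 and the other five between -0.52 and -0.90, a scaling added after the data were seen. Klf4 and Cebpa thus read higher on the scale of all genes and slightly lower relative to the median of keratinocyte markers. Of these markers, Dsp (0.01), Sfn (0.10) and Perp (0.38) lay below both genes, and Krt5, Krt14, Krt10 and Krt1 above both. Subtracting 0.56 from every log2 ratio also puts the median of all measured genes at -0.61. Macrophages, granulocytes, adipocytes, sebaceous glands and melanocytes also express some of these factors. The shares of all measured genes past 2-fold were 2.27% higher and 1.09% lower. The 10 macrophage markers summed to 2166 against 770. Of 9 measured genes 6 were at least 2-fold higher, and Itgam was below the floor on both arrays. The 7 granulocyte markers on the array summed to 1638 against 619. Of 6 measured genes 2 were at least 2-fold higher, S100a9 (481.3 against 40.4) and S100a8 (859.6 against 384.5). These 2 genes gave most of the summed signal on both arrays, and whether that signal came from granulocytes was not tested. Ltf read 131.9 against 86.3 and Mpo 56.4 against 56.1. Camp and Csf3r were under the floor on the wild-type array, and Elane was below it on both. The 8 adipocyte markers on the array, a cell type in which Cebpa is a differentiation factor, summed to 3451 against 3627, with none of 6 measured genes past 2-fold and Lep and Pparg below the floor on both. The 6 sebaceous gland markers, where Prdm1 is also expressed, summed to 2137 against 3567, and 2 of 6 were at least 2-fold lower. The 5 melanocyte markers, a cell type that expresses Tfap2a, summed to 1175 against 2338, and 3 of 5 were at least 2-fold lower. The part of these cells in the signals of Cebpa, Cebpb, Prdm1 and Tfap2a was not tested.

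Among relatives of the factors, Cebpd had the highest log2 ratio. It encodes C/EBP delta, a C/EBP factor induced in acute-phase and inflammatory responses. Its signal was 212.8 on the transgenic and 70.7 on the wild-type array, 3.01-fold higher (log2 ratio 1.59). The second Cebpd probe set read 72.4 against 40.6, a log2 ratio of 0.83. Both were higher, and the sizes differed. By the brightest probe set, Cebpd was the only relative among 21 measured to reach 2-fold in either direction. Centred on keratinocyte markers, 2 others were lower by that much, where the median of all measured genes was -0.61. The share of all measured genes past that limit after centring was not counted. Cebpg, the other measured C/EBP gene, was at -0.09 by its brightest probe set and 0.23 by the next.

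In the Kruppel-like family, 8 of 10 measured relatives of Klf4 and Klf5 were above 0, with a median of 0.05. None reached 2-fold by the brightest probe set. Of all measured genes, 43.6% were above 0. Klf9, a factor induced by glucocorticoids, read 168.6 against 103.5, a log2 ratio of 0.70, and its next brightest probe set gave 0.90. A dimmer Klf9 probe set, with its wild-type signal under the floor, read 91.0, which gives a lower bound of 1.39. Another such probe set gave a bound of 0.32. Klf10, an early response factor of TGF-beta signalling, read 192.5 against 124.0 (0.63). The AP-2 gene Tfap2b was the lowest relative, at 42.6 against 75.4 (-0.82), with its transgenic signal close to the floor, while Tfap2c was at -0.09 by the brightest of 3 probe sets and above 0 by the other two. With Grhl3 not represented, the grainyhead family was read through Grhl1, at 350.0 against 481.2 (-0.46), and Grhl2, at 175.4 against 166.8 (0.07). The next Grhl2 probe set gave -0.03, and a dimmer one, with its transgenic signal under the floor, was also below 0. Across the 21 measured relatives the median log2 ratio was 0.03, with 12 above 0 and 9 below.

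Other regulators of epidermal differentiation, 31 measured of 41 listed, had a median log2 ratio of -0.05, equal to that of all measured genes to 2 decimals. None reached 2-fold. Centred on keratinocyte markers, 8 were lower by that much, but this shift lowers every gene alike. How many of all measured genes it carries past 2-fold was not counted, so the 8 have no background beside them. The list's median was then -0.61, equal to that of all measured genes to 2 decimals. With a limit of 1.5-fold 2 were higher and 5 lower, where 6.8% and 6.38% of all measured genes were. Dlx3, a homeobox factor of the granular layer and the hair follicle, read 227.2 against 401.9 (-0.82), and its second probe set gave -0.89. Msx2, a homeobox factor of the hair follicle, read 282.7 against 471.6 (-0.74). At the other end, Pou3f1, a POU domain factor of the suprabasal epidermis, read 140.0 against 89.4 (0.65), with 0.84 by its second probe set. Ehf, an ETS factor of epithelia, read 54.7 against a wild-type signal under the floor, so that its log2 ratio of 0.66 is a lower bound. Its next probe set gave a bound of 0.04. The 7 hair shaft markers, genes of a compartment in which Dlx3 and Msx2 are expressed, summed to 15948 against 18006 with a median log2 ratio of -0.28, and their part in the Dlx3 and Msx2 values was not tested.

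The Notch pathway, through which spinous cells receive the signal to differentiate, was close to equal as a list. Its median log2 ratio was -0.0023 over 17 measured genes, and none was past 2-fold. Centred on keratinocyte markers, 3 were lower by that much, and no share of all measured genes after centring was counted to set beside them. The list's median was then -0.56, beside -0.61 for all measured genes. Nrarp, a target and feedback inhibitor of Notch, read 683.7 against 466.8, and both its probe sets gave a log2 ratio of 0.55. The receptor gene Notch2 read 223.7 against 153.9 (0.54). The target gene Heyl read 118.2 against 179.3 (-0.60) and the ligand gene Jag2 168.7 against 236.1 (-0.48). Their next probe sets gave smaller sizes, -0.32 for Heyl and -0.30 for Jag2. Hes1, a main effector of the pathway that was named outside the rule, read 194.0 against 194.3.

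The genes of the layers that these factors serve spread further than the factors did. The 13 measured basal layer genes had a median log2 ratio of 0.59, and 11 lay above 0, beside 43.6% of all measured genes. In this list 1 was higher and 1 lower by 2-fold or more. The lower was Krt15, a keratin of basal cells, at 316.7 against 851.0 (-1.43). Of the basal factors, Trp63 and Tfap2a lay below 0 and Klf5 above. The 8 spinous layer genes had a median of 0.59, with 3 at least 2-fold higher. Over all measured genes, 2.27% were higher and 1.09% lower by 2-fold or more. Krt1, a keratin of the spinous layer, had a log2 ratio of 2.61, larger than that of any of the 8 factors. The 20 granular and cornified layer genes had a median of 0.14, of which 6 were higher and 1 lower by 2-fold or more. They ran from Casp14, the protease of cornifying cells, at least 2.89, down to Ivl, the gene of involucrin, at -1.50, and Tgm3, a transglutaminase gene, at -0.77. Tgm1, the transglutaminase gene that is a known target of Grhl3 and was named outside the rule, read 164.7 against 177.6 (-0.11). Centred on keratinocyte markers, the medians were 0.03 for the basal, 0.02 for the spinous and -0.42 for the granular and cornified genes. Of the granular and cornified genes, 4 were then higher and 3 lower by 2-fold or more. The share of all measured genes past 2-fold after centring was not counted. The median of all measured genes was then -0.61. Krt5, Krt14 and Perp of the basal list and Krt1, Krt10 and Dsp of the spinous list are themselves among those markers. Medians near 0 for the basal and spinous lists thus follow in part from the centring itself.

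**Figure D4:**
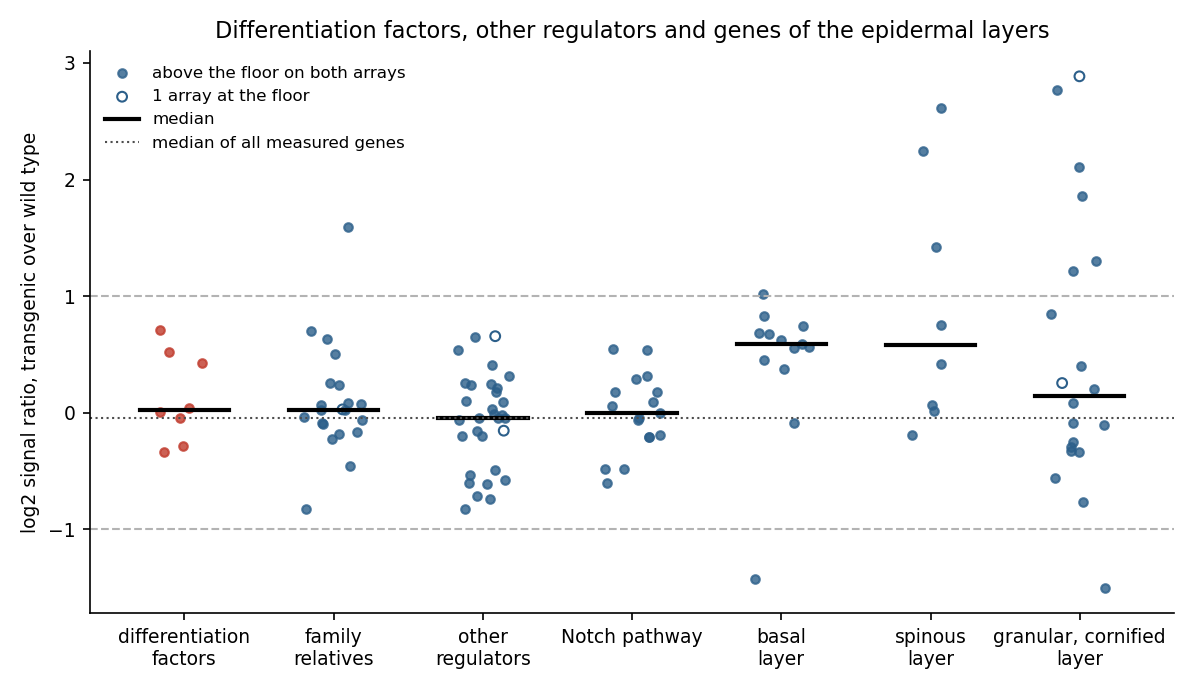
Log2 ratio (transgenic over wild type) for the measured genes of 7 lists (points; open circles have 1 array at the floor), with each list's median (black bar), the median of all measured genes (dotted, -0.05) and 2-fold lines (dashed). The 8 factors lie between -0.34 and 0.71, while the granular and cornified layer genes run from -1.50 to 2.89.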

How the data were processed

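Biotin-labelled total RNA from back skin was measured on 1-colour arrays, 1 per genotype, grouped by the source names in the labels. The deposited values are linear intensities, 1 per probe set; their software is not given in the sources used. The 2% trimmed mean of the deposited intensity was 100.03 on each array, which shows scaling before deposit.

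Both arrays were rescaled to the same 2% trimmed mean, raised to a floor at the 40th percentile of non-control signals (34.7) and put on the log2 scale (Python 3.11.15, pandas 2.3.3, numpy 2.4.6). Of 22690 probe sets, 20380 had 1 gene in the 2016 platform annotation and were named, with symbols updated through RefSeq (GRCm38.p6), 691 had several genes and 1555 none. The probe set with the highest sum over both arrays stood for its gene, which counted as measured if either array exceeded the floor there. A probe set at the floor on 1 array gives a bound. The number of arrays limits the precision, and genes were called at 2-fold without a test. The calculation was checked on simulated arrays.

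The factors and lists were chosen with earlier results of these data known. The genes named are the 8 factors, the 2 highest and 2 lowest of each other list, and relatives past 2-fold, with exceptions stated; where a list is summarised, fewer are named. Klf10, Cebpg, Tfap2c and Grhl2 were named outside this rule, after their values were seen, as close relatives of the factors. The keratinocyte and granulocyte markers, and the layer genes shared with the keratinocyte markers, were also named outside it. The genes of most similar pattern were not sought, since 2 arrays give 1 ratio per gene. The alternatives were other scalings, floors, a pseudocount, probe set rules and fold limits.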

Additional observations from a re-analysis of the deposited data

How the results depend on the processing

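The 9 alternatives of scaling, floor and probe set choice left the counts of factor genes past 2-fold at none higher and none lower. A limit of 3-fold gave none either, and a limit of 1.5-fold gave 1 higher, Klf5. The median log2 ratio of the factor genes was 0.02. It was -0.090 when all probe sets of a gene were averaged. It was -0.54 when centred on keratinocyte markers, an alternative added after the data were seen. The median of all measured genes was then -0.61. Over the 9 alternatives, Klf4 ran from 0.37 to 0.51, Cebpa from 0.46 to 0.57, Trp63 from -0.31 to -0.12 and Prdm1 from -0.34 to -0.29, without a change of sign. Not all alternatives could move these values. The other floors left them unchanged, and Cebpa and Prdm1, with 1 probe set each, could not change under the probe set rules. Klf5 ran from 0.18 to 0.75, and 0.18 is its value without suffixed probe sets, where only the dimmer is left. That alternative drops every lettered suffix alike, and the brighter Klf5 probe set carries _a_at, not _s_at. Ovol1 was at -0.26 when its probe sets were averaged. The granular and cornified layer median ran from 0.08 to 0.23, the spinous from 0.42 to 0.63 and the basal from 0.56 to 0.67. The signs of Cebpb, Ovol1 and Tfap2a changed among the alternatives. No paired analysis was possible because each genotype has 1 array, and no array could be left out for the same reason.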
